A study of Mus musculus with 6 samples.

Results

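The 4 Hox clusters were examined for binding of SALL4, a zinc-finger protein, in mouse embryonic stem cells. All intervals within 100 kb of a cluster were taken from 4 lists of SALL4 intervals, with each cluster running from its first to its last protein-coding gene named Hoxa, Hoxb, Hoxc or Hoxd plus a number. The rule used gene names and positions, and no measured value. After joining the intervals of both wild-type lists that overlapped, 70 regions of 64314 in all were members. These came from 56 of 55058 intervals in wild-type replicate 1 and 53 of 48295 in wild-type replicate 2, and from 0 of 34 and 0 of 39 in knockout replicates 1 and 2. The naming rule matched 39 coding genes, of which 38 are described here, and the further one, at the low-numbered end of Hoxa, served only to set the span.

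CUT&RUN was used, an assay that sequences the short DNA fragments a tethered nuclease cuts loose around an antibody's target in permeabilised cells. The wild-type libraries came from a line with floxed Sall4 alleles (Sall4 F/F) and the knockout libraries from a Sall4 -/- line, both grown in 2i + LIF medium, with 2 SALL4 libraries per line. Each genotype is represented by 1 line, and nothing in the labels says that the replicates were separate cultures, so any p-value measures only the spread between these libraries. Peak lists measure no expression, so the cell type could not be checked against marker genes, and Sall4 itself had 7 intervals within 10 kb in each wild-type library and 0 in each knockout library. Since the knockout lists are nearly empty throughout the genome, that 0 is no check of the deletion.

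Hox genes encode homeodomain transcription factors that give cells their position along the head-to-tail axis. Their order in each cluster follows their order of use in the embryo, with low-numbered (anterior) genes used first and nearest the head and high-numbered (posterior) genes later and nearest the tail. In embryonic stem cells the clusters are known as wide domains of Polycomb repression that retinoic acid or Wnt signals open from the anterior end. SALL4 is known to bind A and T rich DNA through its C-terminal zinc fingers and, in people, loss of 1 copy causes limb defects.

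The sequences that bear on where the intervals lay are shown first, from RefSeq promoter windows on GRCm38.p6 (250 bases before to 50 after each start). Among the 57 such windows in that table for 48 genes of all types in the clusters and their flanks, 2 overlapped a wild-type interval, and both belong to long non-coding RNAs. Over all windows of the table the share was 5.09%, so this count is near the background. The window of 5730596B20Rik, which lies within Hoxa3 at chr6:52176905-52177204 on the plus strand, was overlapped in both wild-type lists, over 222 bp in replicate 1 and 227 bp in replicate 2. The window of Evx1os, beyond Hoxa13 at chr6:52314783-52315082 on the minus strand, was overlapped in wild-type replicate 2 only, over 139 bp. That interval also lies within the coding gene Evx1. Among the Hox windows in the table, that of Hoxa10 was nearest to an interval, at 13 bp. For it the 250 bases before the start, chr6:52240855-52241104 on the minus strand, are given. Capitals mark the bases under the interval (for 5730596B20Rik the joined interval of both lists), and all runs read 5′ to 3′.
5730596B20Rik: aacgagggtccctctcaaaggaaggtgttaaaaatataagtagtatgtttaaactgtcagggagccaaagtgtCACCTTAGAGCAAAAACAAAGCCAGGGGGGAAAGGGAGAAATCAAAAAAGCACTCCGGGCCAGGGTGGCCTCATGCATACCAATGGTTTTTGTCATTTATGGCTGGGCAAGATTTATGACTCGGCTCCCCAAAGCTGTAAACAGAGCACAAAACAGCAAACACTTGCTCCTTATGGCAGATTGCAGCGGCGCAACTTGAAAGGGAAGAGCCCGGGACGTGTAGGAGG
Evx1os: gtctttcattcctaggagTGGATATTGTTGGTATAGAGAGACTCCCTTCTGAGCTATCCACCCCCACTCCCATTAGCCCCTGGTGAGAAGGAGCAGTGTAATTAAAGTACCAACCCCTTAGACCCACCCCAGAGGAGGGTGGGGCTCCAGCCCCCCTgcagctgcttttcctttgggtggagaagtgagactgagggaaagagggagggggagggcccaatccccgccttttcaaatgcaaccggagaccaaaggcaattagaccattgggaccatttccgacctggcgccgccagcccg
Hoxa10: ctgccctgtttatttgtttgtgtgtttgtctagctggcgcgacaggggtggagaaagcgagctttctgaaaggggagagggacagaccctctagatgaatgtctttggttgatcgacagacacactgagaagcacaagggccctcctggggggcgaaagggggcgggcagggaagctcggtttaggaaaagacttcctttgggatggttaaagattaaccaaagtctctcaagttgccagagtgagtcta

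The promoter table held 24 windows of 22 of the 38 Hox genes, namely 10 windows in Hoxa, 3 in Hoxb, 10 in Hoxd and only 1, that of Hoxc4, in Hoxc. Of these, 0 overlapped a wild-type interval in either list. Over all 32851 windows of the table, 3.12% overlapped a region called in both wild-type lists and 5.09% an interval of either list, so a count of 0 among 24 is near this background. For the other 16 genes, 8 of them in Hoxc, a window of the same size was laid at the gene's start in the gene table. Of these windows, 2 overlapped an interval, each in 1 list only, and both were in Hoxc. At Hoxc13, which acts in hair and nails, the interval of replicate 1 covered 72 bp of the window, with its summit 218 bp before the start, and that of replicate 2 lay outside it. At Hoxc5 the interval called in replicate 2 only covered 159 bp, with its summit 38 bp before the start. The motif ATATT (or AATAT, its other strand, with overlapping matches allowed) was in 4 of the 24 Hox windows (16.7%) and in 25.3% of all windows. Median A+T content was 42.3% in the Hox windows and 47.3% in all windows, and the median number of CpG dinucleotides was 14.5 and 7. Windows overlapping a region called in both lists had a median A+T content of 47.7% and 11 CpG, and 26.7% held the motif. In the window of 5730596B20Rik the A+T content under the interval was 49.3% and the motif had 0 matches there, while the covered part of the Evx1os window held 1.

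The clusters also hold 6 miRNA genes, and 0 of them was overlapped by an interval, beside 0.651% of 1228 miRNA genes in the genome, so that a count of 0 is near the background. Their 5p mature forms are shown because 4 of these 5 sequences fall into shared seed families, with the seed (bases 2 to 8) in capitals, from RefSeq on the same build.
miR-10a-5p (Hoxb): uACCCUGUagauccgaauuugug
miR-10b-5p (Hoxd): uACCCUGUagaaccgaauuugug
miR-196a-5p (Hoxb and Hoxc): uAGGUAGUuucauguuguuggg
miR-196b-5p (Hoxa): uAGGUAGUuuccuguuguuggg
miR-615-5p (Hoxc): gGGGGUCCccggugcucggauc
miR-10a and miR-10b share the seed ACCCUGU, and miR-196a and miR-196b share AGGUAGU. The distances that follow run from these mature sequences. The miR-615-5p sequence, inside Hoxc5, lay closest to an interval, at 197 bp. The next was miR-196a-5p in Hoxb at 5.30 kb, followed by miR-10b-5p at 7.40 kb, miR-196b-5p at 7.97 kb and the Hoxc copy of miR-196a-5p at 11.6 kb, and miR-10a-5p was farthest, at 45.1 kb.

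The comparison of the genotypes asked whether the intervals at the Hox clusters depend on SALL4. Wild-type replicates 1 and 2 held 56 and 53 intervals (54.5 ± 2.12, SD, n = 2), and both knockout libraries held 0, so the groups did not overlap. The whole lists held 55058 and 48295 intervals in the wild type and 34 and 39 in the knockout. At the wild-type share at the Hox clusters, 0.102% and 0.11% of each list, knockout lists of that size would hold 0.036 and 0.041 intervals here, so the count of 0 follows the whole lists and shows nothing particular to the Hox clusters. On the scale of log2(number + 1) the difference was 5.79, against an SD of 0.06 between the wild-type libraries. The two-sided exact permutation test gave p = 0.333, the smallest p that 2 libraries against 2 allow. The weakest interval of the knockout lists had a −log10 p of 6.61 in replicate 1 and 7.12 in replicate 2, and 35 of the 56 and 35 of the 53 wild-type intervals lay at or above the first of these levels. A count of 0 in a list says that nothing passed the authors' calling threshold there.

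**Figure D1:**
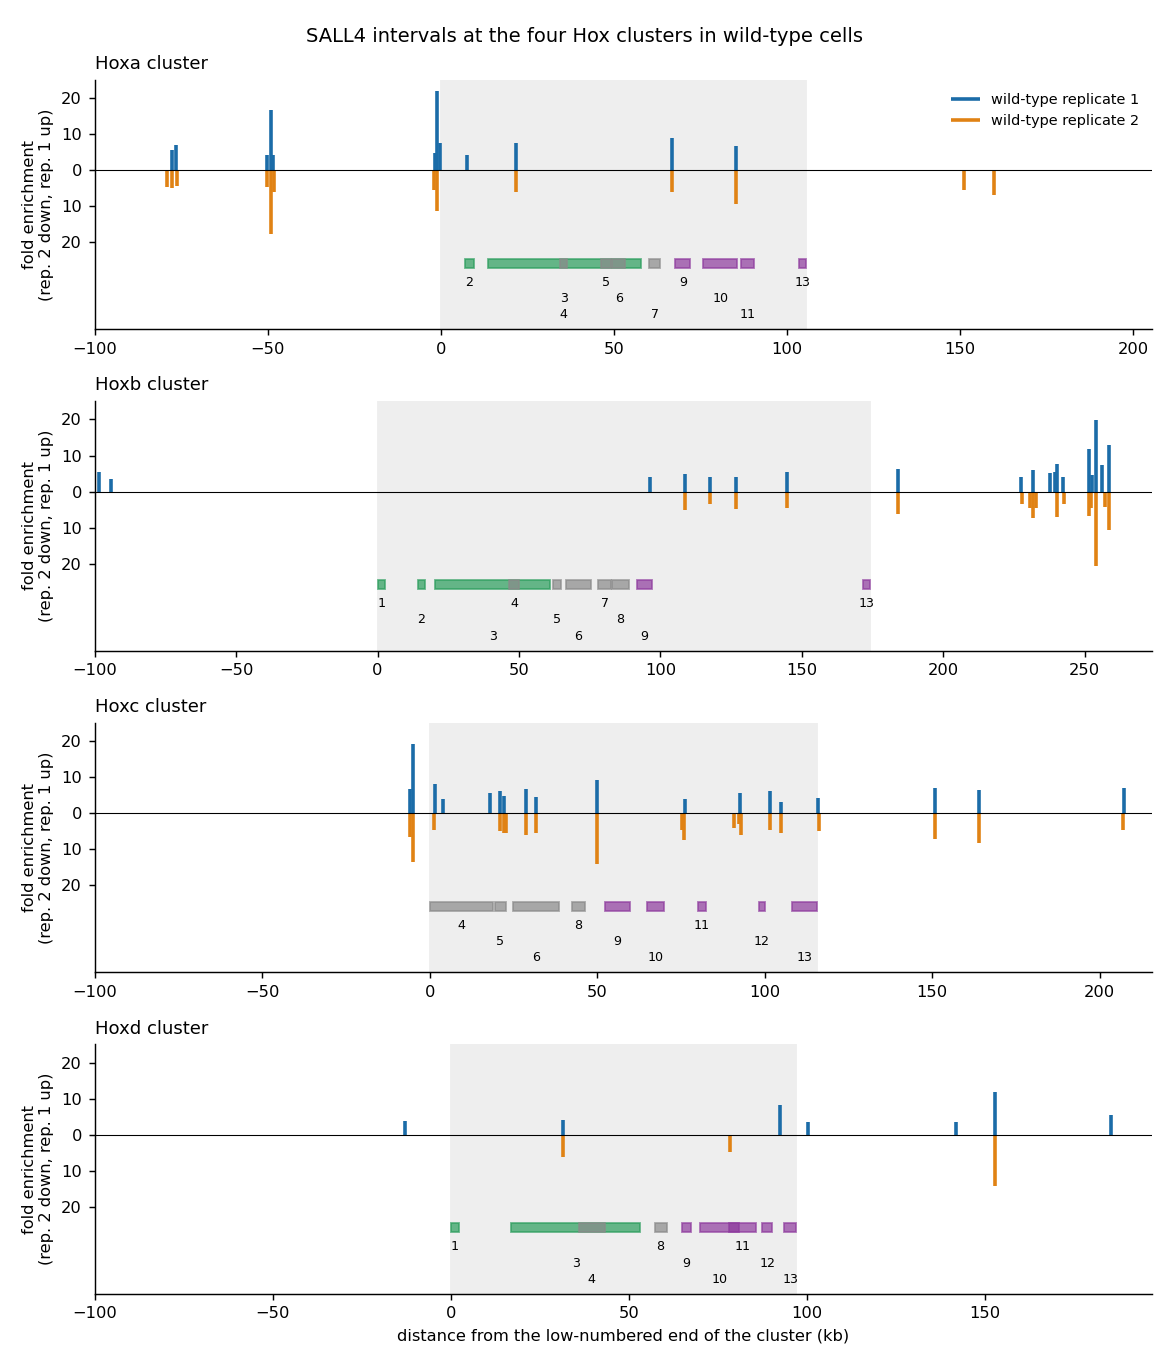
Fold enrichment over the authors' local background (vertical axis, wild-type replicate 1 upwards and replicate 2 downwards) against the distance in kb from the low-numbered end of each cluster. Grey shading marks the cluster, boxes mark the 38 Hox genes by number (green 1 to 3, grey 4 to 8, purple 9 to 13), the strongest lines stand outside the shading, and the low-numbered part of Hoxb holds no line.

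The comparison of each cluster with its flanks asked whether SALL4 intervals gather among the Hox genes themselves. Over all intervals and flanks of 100 kb they were denser inside than in the flanks at Hoxc, while at Hoxa, Hoxb and Hoxd the difference was within counting error or differed between the libraries. Hoxc (chromosome 15, 102921131 to 103036856, 115.7 kb) held 12 and 14 intervals in wild-type replicates 1 and 2, or 10.4 and 12.1 per 100 kb. Its flanks of 100 kb on each side held 6 in each library, or 3.0 per 100 kb, and the ratio of inside to flanks was 3.74 ± 0.407 (SD, n = 2). Hoxb (chromosome 11, 96194316 to 96368254, 173.9 kb) held 5 and 4 inside and 14 and 13 in the flanks, a ratio of 0.382 ± 0.0402. The share of its intervals that lay inside was 26.3% (95% exact binomial interval 9.15 to 51.2) and 23.5% (6.81 to 49.9), and both intervals contain the 46.5% of the length that lies inside. At Hoxc the shares were 66.7% (41.0 to 86.7) and 70.0% (45.7 to 88.1), above the 36.7% of its length. With flanks of 50 kb in place of 100 kb the Hoxb ratio turned over to 2.59, since most of its flanking intervals lay farther away. The Hoxc ratio stayed above 1 under the alternatives tried, but its mean fell to 2.25 with flanks of 50 kb, 2.1 with flanks of 200 kb (1.66 in replicate 1), 2.59 at a −log10 q of 10 or more and 1.73 at a −log10 p of 8 or more. At that p limit 5 intervals lay inside and 5 in the flanks in replicate 1, and 4 and 4 in replicate 2. The shares inside were then 50% (18.7 to 81.3) and 50% (15.7 to 84.3), so the difference at Hoxc was within counting error. It was so too at a −log10 q of 10 or more, with 2 inside and 1 in the flanks in replicate 1, and 1 and 1 in replicate 2. The same held with flanks of 50 kb in both libraries and with flanks of 200 kb in replicate 1.

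Hoxa (chromosome 6, 52155367 to 52260880, 105.5 kb) held 4 and 3 intervals inside and 8 and 10 in its flanks, a ratio of 0.758 ± 0.268. Hoxd (chromosome 2, 74668225 to 74765142, 96.9 kb) held 2 in each library inside, and 5 and 1 in its flanks, so that its ratio was 0.825 in replicate 1 and 4.13 in replicate 2. The Hoxd ratio therefore rests on which library is used. Over the 4 clusters together, 23 intervals in each library lay inside 492 kb, or 4.67 per 100 kb, and 33 and 30 lay in 800 kb of flanks, or 4.13 and 3.75 per 100 kb. The pooled ratio was 1.19 ± 0.0801. The share inside was 41.1% (95% exact binomial interval 28.1 to 55.0) and 43.4% (29.8 to 57.7), and both intervals contain the 38.1% of the length that lies inside. These intervals and the Poisson intervals that follow cover counting error only. Among the stronger intervals (−log10 q of 10 or more) the pooled ratio was 0.503, the reverse of the direction over all intervals. That ratio rests on only 12 and 9 intervals in replicates 1 and 2, inside and flanks together. No interval for counting error was computed for it.

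**Figure D2:**
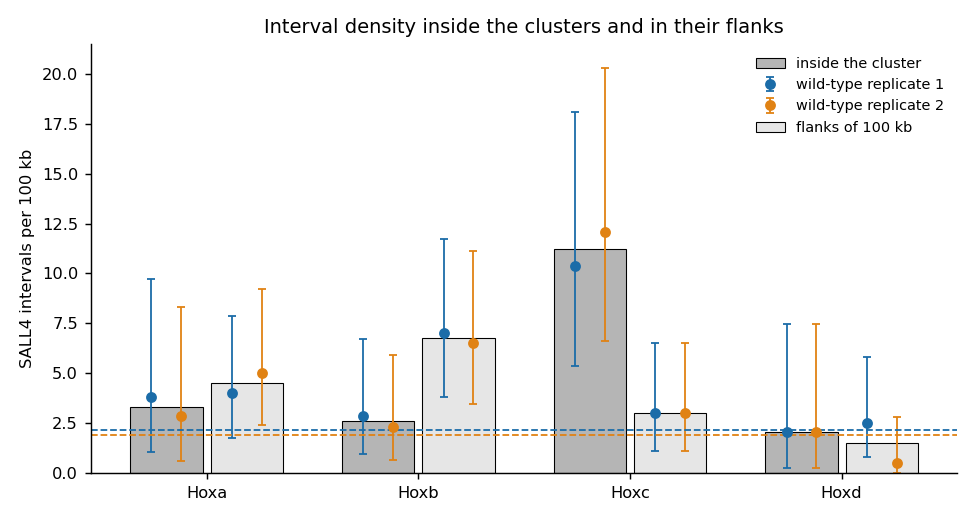
SALL4 intervals per 100 kb inside each cluster (dark bars) and in its flanks of 100 kb on each side (light bars). Bars are means of the wild-type libraries, points single libraries with exact Poisson 95% intervals, and dashed lines the genome-wide densities of 2.15 and 1.89. Inside Hoxc both libraries stand above 10 per 100 kb.

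The density in Hoxc was compared with the other clusters and with the genome at large. In replicate 2 the exact Poisson 95% interval for Hoxc (6.61 to 20.3 per 100 kb) lay above that for Hoxb (0.627 to 5.89). It overlapped those for Hoxa (0.586 to 8.31) and Hoxd (0.250 to 7.45). In replicate 1 the Hoxc interval (5.36 to 18.1) overlapped those of all the other clusters. The genome as a whole held 2.15 and 1.89 intervals per 100 kb. Of consecutive genome windows as long as Hoxc, 96.5% in replicate 1 and 98.3% in replicate 2 held fewer intervals than Hoxc. Among windows with at least 5 coding genes these shares were 97.0% and 98.7%. The shares were 78.7% and 74.0% for Hoxa, 72.5% and 69.1% for Hoxb, and 61.3% and 64.3% for Hoxd.

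Most intervals in Hoxc were weak ones. At a −log10 p of 8 or more, Hoxc held 5 and 4 intervals and Hoxa 3 in each library, and 92.5% and 90.8% of windows held fewer than Hoxc, beside 84.1% and 86.9% for Hoxa. At a −log10 q of 10 or more, Hoxc held 2 and 1 intervals, and 82.4% and 67.7% of windows of its length held fewer. Hoxb and Hoxd then held 0 intervals in both libraries, as did 52.6% and 57.7% of windows as long as Hoxb and 67.0% and 71.4% of windows as long as Hoxd. Hoxa held 1 in each library at that level, and 65.0% and 69.5% of windows of its length held fewer, so Hoxc was above Hoxa in replicate 1 and not in replicate 2.

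**Figure D3:**
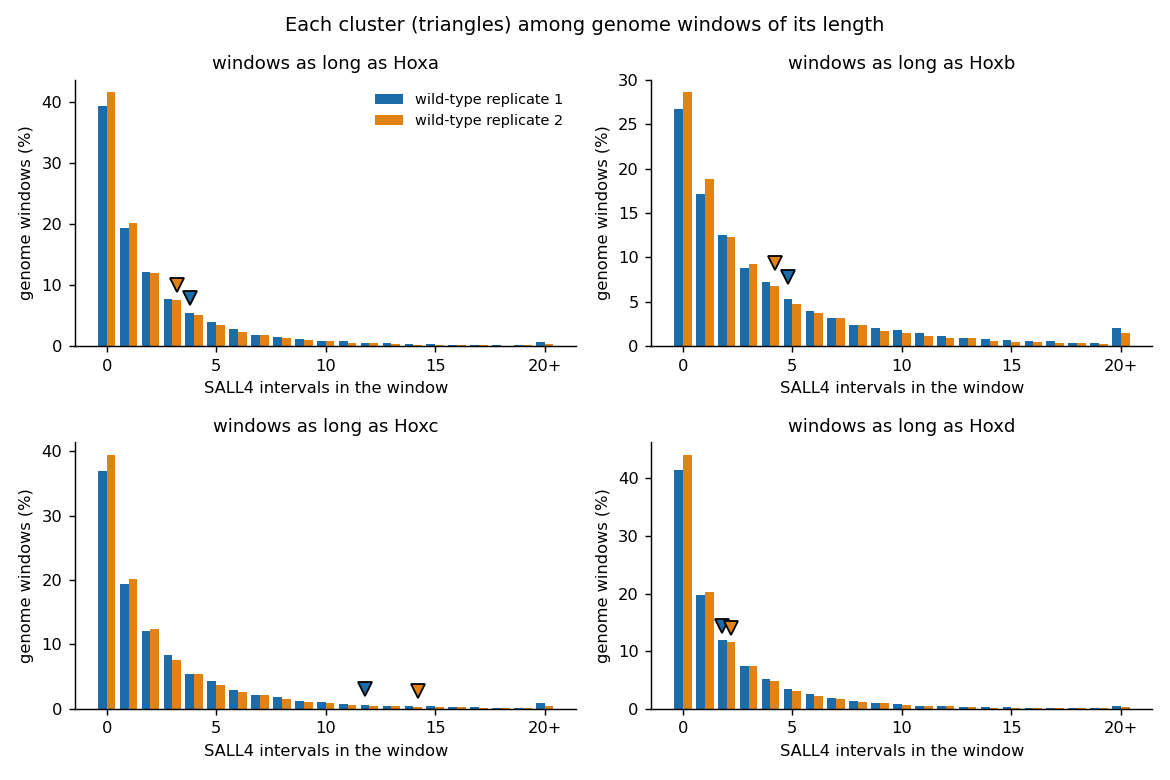
Share of genome windows (vertical axis, percent) holding each number of SALL4 intervals (horizontal axis), for windows as long as each cluster, with the cluster's own count as triangles. The Hoxc triangles stand at 12 and 14, in the upper tail, and those of Hoxd at 2.

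Along the clusters, the intervals were compared by paralog number, with each summit given to its nearest Hox gene. The stretches of anterior genes (numbers 1 to 3) held 3 and 2 intervals in 156.6 kb, or 1.92 and 1.28 per 100 kb. Central stretches (4 to 8) held 7 and 6 in 111.2 kb, or 6.29 and 5.39. Posterior stretches (9 to 13) held 13 and 15 in 224.3 kb, or 5.80 and 6.69. The anterior density was thus below the other two in both libraries, with means of 1.60 ± 0.452, 5.84 ± 0.636 and 6.24 ± 0.631 (SD, n = 2). The Poisson intervals of the anterior and posterior densities overlapped in each library (0.395 to 5.60 and 3.09 to 9.91 in replicate 1). At a −log10 p of 8 or more the order held in replicate 1 only, with 0.639 anterior against 2.70 central, while replicate 2 had 1.28 against 0.899.

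Hoxc has no anterior gene, so the class and the cluster cannot be told apart in these sums. All central intervals lay in Hoxc, where central and posterior stretches held 7 and 5 intervals in replicate 1 and 6 and 8 in replicate 2. In Hoxa the anterior stretch held 2 and 1 intervals and the posterior stretch 2 in each library. Hoxd had 1 in each library in both stretches. Hoxb had 0 anterior and 0 central intervals, and 5 and 4 posterior ones. Hoxb also has a long gene-poor stretch between Hoxb13 and Hoxb9. Without it Hoxb held 1 and 0 posterior intervals in 9.0 kb, and the posterior mean over all clusters was 6.69 ± 0.946.

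**Figure D4:**
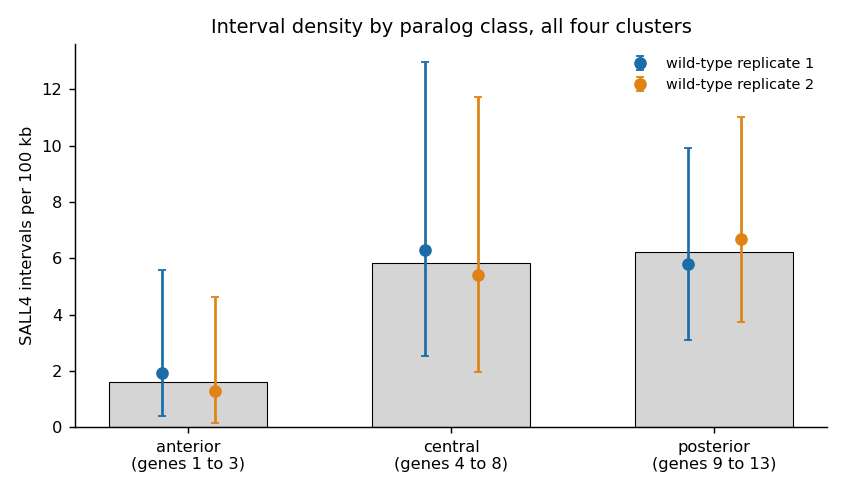
SALL4 intervals per 100 kb in the stretches nearest to anterior, central and posterior Hox genes, summed over the 4 clusters. Bars are means of the wild-type libraries and points single libraries with exact Poisson 95% intervals. The anterior points, at 1.92 and 1.28, are the lowest, and all central intervals come from Hoxc.

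Of the 38 Hox genes, 10 had a consensus region, meaning one called in both wild-type lists and in no knockout list, in the gene or within 2 kb. That is 26.3%, against 31.9% of 21883 protein-coding genes and 22.6% of the 14010 whose length falls in the range of the Hox genes (1784 to 44009 bp). The share among Hox genes was thus near the background. In the gene itself, 6 of 38 had one, beside 27.6% of all coding genes and 17.1% of those of similar length. At a −log10 q of 10 or more the count within 2 kb was 0 of 38, beside 14.9% of coding genes and 7.84% of those of similar length.

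Hoxc contributed 5 of its 9 genes, namely Hoxc4, Hoxc5, Hoxc6, Hoxc12 and Hoxc13. Hoxa contributed Hoxa3, Hoxa9, Hoxa10 and Hoxa11 of 10, Hoxd contributed Hoxd3 of 9, and Hoxb 0 of 10. By class, 2 of 7 anterior, 3 of 15 central and 5 of 16 posterior genes had one. A further 5 genes had an interval of 1 wild-type list only within 2 kb, namely Hoxa2, Hoxb9 and Hoxd13 in replicate 1 and Hoxd10 and Hoxd11 in replicate 2. The remaining 23 genes had none. By library, 13 Hox genes had an interval of replicate 1 within 2 kb and 12 had one of replicate 2, beside 38.4% and 36.0% of coding genes. At 5 kb the count of genes with a consensus region was 15, beside 36.2% of coding genes and 28.0% of those of similar length. At 10 kb all 9 Hoxc genes had a consensus region, and 17 of 38 did in all, beside 42.1% of coding genes and 35.3% of those of similar length.

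Posterior Hoxa genes pattern the limb, the reproductive tract and blood progenitors. Among them an interval was called at the start of Hoxa10, at 52240644 to 52240792. Its fold enrichment over the authors' local background was 6.76 in replicate 1 and 9.34 in replicate 2, and its pileup, the number of fragments over the summit as recovered from the deposited values, was 9 and 13. Both summits lay just after the gene's start, at 141 and 138 bp, past the end of the promoter sequence shown above. The interval between Hoxa9 and Hoxa7, 939 bp from Hoxa9 at 52221904 to 52222158, had folds of 8.79 and 6.0, so it was the higher of these in replicate 1 and the lower in replicate 2. Hoxa9 is known as a driver of blood stem cell growth. The interval in Hoxa3, a gene known for its part in thymus and parathyroid formation, covered the promoter of 5730596B20Rik at 52176978 to 52177218 with folds of 7.58 and 6.12. These 3 were all of the consensus regions inside Hoxa. An interval in Hoxa2, which patterns the hindbrain and face, was called in replicate 1 only, with a fold of 4.13 and a pileup of 5.

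The strongest interval inside any cluster lay between Hoxc9 and Hoxc8, at 102986686 to 102987173 on chromosome 15. It had folds of 9.15 and 14.0 and pileups of 17 and 20, and the distance was 2242 bp to Hoxc9 and 3366 bp to Hoxc8, which act in the trunk and its motor neurons. Towards the low-numbered end, Hoxc6 held an interval with folds of 6.76 and 6.0 at 103007982 to 103008163. Hoxc5 held one at 103015877 to 103016063 with folds of 6.10 and 5.03, and another at 103014440 to 103014729, beside miR-615, with folds of 4.82 and 5.44. Hoxc4 held one at 103035276 to 103035504 whose folds were 8.13 and 4.53 and pileups 15 and 8, so the values were higher in replicate 1.

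Towards the high-numbered end of Hoxc, an interval in Hotair, a long non-coding RNA transcribed between Hoxc12 and Hoxc11, had folds of 5.51 and 6.12 at 102943930 to 102944272. An interval 1566 bp from Hoxc12 had folds of 6.20 and 4.76. Of the 16 regions inside Hoxc, 6 were in 1 list only. Replicate 1 alone had a pair in Hoxc4, with folds of 5.51 and 4.06. Replicate 2 alone had a pair in Hotair with folds of 3.02 and 4.08, one in Hoxc5 with 5.44, and one 4778 bp from Hoxc11 with 4.76.

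In Hoxb all 5 regions lay between Hoxb13 and the near part of Hoxb9, and their folds were low, from 4.09 to 5.34 in replicate 1 and from 3.36 to 5.04 in replicate 2. The best ranked, at 96223285 to 96223513, lay 26675 bp from Hoxb13, a gene of the tail end of the body and the prostate, with folds of 5.34 and 4.61. The next, at 96259551 to 96259891 in the long non-coding RNA Gm53, had folds of 4.77 and 5.04 and pileups of 13 and 14. An interval in Hoxb9 was called in replicate 1 only, with a fold of 4.13. From there a stretch of 190.4 kb, at 96272073 to 96462452, had no interval in any of the 4 lists. It contains the genes Hoxb1 to Hoxb8 whole, 8 in all, of which Hoxb1 is a hindbrain gene known for its early response to retinoic acid. Of 64218 gaps between wild-type regions, 4.7% were as long, and 44.2% of all sequence in gaps lay in such gaps.

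Other runs of genes without an interval were shorter. Hoxa4 to Hoxa7 lay in a gap of 44.69 kb, and Hoxa11 and Hoxa13 in one of 65.56 kb. Hoxd4, Hoxd8 and Hoxd9 lay in one of 46.52 kb, and Hoxd1 in one of 44.41 kb. The longest gap inside Hoxc was 24.95 kb and contained Hoxc9 and Hoxc10. Gaps as long as that at Hoxa11 made up 15.2% of all gaps, and gaps as long as that inside Hoxc made up 30.4%.

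Hoxd genes pattern the limb and the digits, and 2 of the 9 had an interval of replicate 1 within 2 kb and 3 of replicate 2, beside 38.4% and 36.0% of coding genes. The only consensus region inside this cluster, which falls outside the 12 best ranked and was named after its values were seen, lay in Hoxd3 at 74733498 to 74733669 with folds of 4.13 and 6.12. An interval 986 bp from Hoxd13, the gene of the digits and genital tubercle, was called in replicate 1 only, with a fold of 8.11 and a pileup of 11. One where the annotations of Hoxd11 and Hoxd10 overlap was called in replicate 2 only, with a fold of 4.76 and a pileup of 6.

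The highest folds stood outside the clusters. Inside, the median fold was 5.34 in both libraries and the highest 9.15 and 14.0, whereas in the flanks the medians were 6.08 and 5.96 and the highest 21.8 and 20.5. A fold of 10 or more was found in 0 of 23 and 1 of 23 intervals inside, and in 7 of 33 and 6 of 30 in the flanks. The whole lists had 20.4% and 19.4% at that level, close to the share in the flanks, with median folds of 5.86 and 5.56. Median pileups were 8 and 8 inside, 9 and 9.5 in the flanks, and 9 in both whole lists, so most intervals inside rest on few fragments.

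The flanking intervals were uneven by side. At Hoxa, 8 and 8 lay beyond the low-numbered end and 0 and 2 beyond the high-numbered end. At Hoxb the sides were reversed, with 2 and 1 beyond the low-numbered end and 12 and 12 beyond Hoxb13. At Hoxa the best by the worse of its ranks in both lists, in the long non-coding RNA Halr1, had folds of 16.5 and 17.7 and pileups of 23 and 25, at 52105830 to 52106606. Another, 843 bp outside the low-numbered end, had folds of 21.8 and 11.4 and pileups of 42 and 33, higher than the former in replicate 1 by fold and in both libraries by pileup. Beyond Hoxb13, an interval in Calcoco2, an autophagy receptor gene, had folds of 19.8 and 20.5 and pileups of 57 and 60 at a distance of 79680 bp. A second in Calcoco2 had folds of 12.8 and 10.7. Beyond Hoxc4, an interval 4504 bp away in the long non-coding RNA Gm30528 had folds of 19.3 and 13.6, and beyond Hoxc13 one 34958 bp away had 7.11 and 7.06. At Hoxd the only flanking region called in both lists lay 55740 bp beyond Hoxd13, with folds of 11.7 and 14.3.

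**Figure D5:**
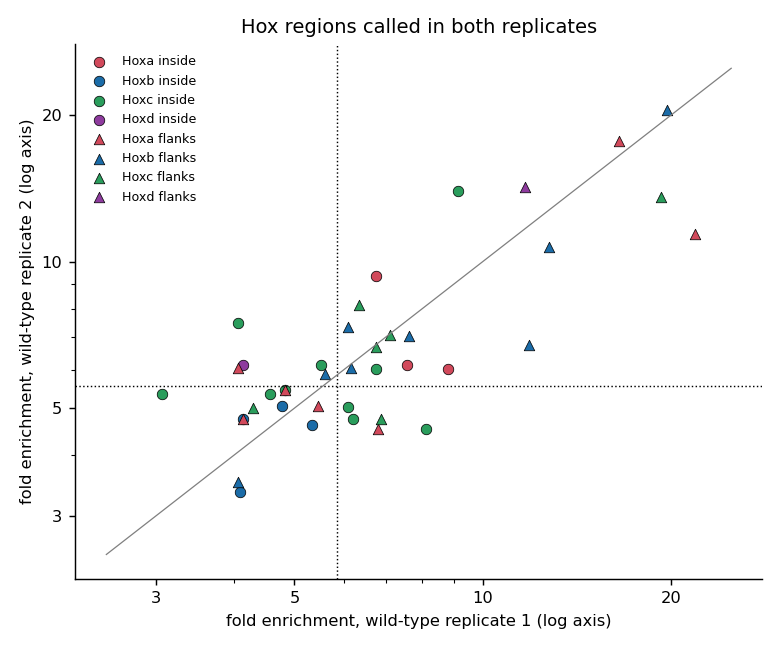
Fold enrichment in wild-type replicate 1 against replicate 2 (both axes log) for the 40 Hox regions called in both lists, circles inside the clusters and triangles in the flanks, coloured by cluster. The solid line marks equal folds and the dotted lines the medians of the whole lists, 5.86 and 5.56. The points above 10 on both axes are all triangles.

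The lists of both replicates were compared over the members. Of the 56 intervals in replicate 1, 39 (69.6%, 95% exact binomial interval 55.9 to 81.2) overlapped one of replicate 2 by at least 1 bp. In the other direction 40 of 53 (75.5%, 61.7 to 86.2) did. The whole lists had 70.4% and 79.3%, both within those intervals. Inside the clusters 18 of 23 did in each direction (78.3%). Of the 70 regions, 17 were in replicate 1 only and 13 in replicate 2 only, and the median pileup of these was 7 in both lists. Among the 40 regions in both, the fold was higher in replicate 1 in 20, and the median of log2(replicate 2 / replicate 1) was 0.02, with a largest absolute value of 0.94. Over all 38007 regions in both lists, 65.2% were higher in replicate 1 and the median was -0.13.

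Genes that work with or upstream of the Hox genes were counted at 10 kb, beside the 42.1% of coding genes with a consensus region at that distance. Of 23 such genes, 14 had at least 1. Among the TALE cofactors, which bind DNA jointly with Hox proteins, 7 of 8 described here did, with 19 regions at Meis2, 11 at Pknox2, 5 at Pbx3, 3 each at Meis1 and Pknox1, 1 each at Pbx2 and Pbx4, and 0 at Meis3. These genes are long, with a median of 91.0 kb against 17.2 kb over all coding genes, and a long gene has more room for a region. Per 100 kb of gene and 10 kb margins, Meis2 had 8.40 and Pbx4 1.67. Of the activators of Hox genes, Cdx4 had 2 regions, Kmt2a, a histone methyltransferase, 2, Cdx2 1 and Cdx1 0. Of 5 retinoic acid genes, Rarb, a receptor, had 14 and Aldh1a2, which makes retinoic acid, 6, and Rara, Rarg and Cyp26a1 had 0. Rarb is long too, at 651 kb, and had 2.08 regions per 100 kb, while Aldh1a2 had 5.97. Of 6 further homeobox genes, Gbx2 had 2 and Gsx2 1. The neighbours of the clusters, Evx1 and Evx2, had 0, as did Gsx1 and Pdx1. In 1 list only, Evx1 had 2 intervals (replicate 2), and Evx2 and Cdx1 had 1 each (replicate 1). Both knockout lists had 0 intervals at all 23.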

How the data were processed

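SALL4 CUT&RUN lists of 4 libraries were used, 2 per genotype. The 6 samples include 2 of IgG, for which no list was analysed here. Groups and replicate numbers come from the titles. Peak names in the list of wild-type replicate 2 spell the genotype KWT, and the IgG samples' antibody label reads SALL4, with a catalogue number of its own. The titles were followed for both. Cells were permeabilised with digitonin, per the labels' protocols. Per the submitters' processing notes, Trim Galore 0.6.0, cutadapt 1.18, FastQC 0.11.8, BWA 0.7.17 and MACS2 2.1.1.20160309 were used, with the builds GRCm38 and mm10. Their settings and the control are not given in the sources used here. Each list was called on 1 sample.

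The score deposited by the authors is read from column 5 and was not used further. The deposited fold enrichment is a ratio to a local background, and the deposited −log10 p and −log10 q belong to the same summit. Folds and q-values are the authors' and describe, rank or filter intervals within a list. Folds of both wild-type lists are also set side by side, without a test. The deposited summit offset counts bp from an interval's start.

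Overlapping lines of 1 list were merged, keeping the highest fold. Fold and −log10 p together gave a whole pileup for all 56 and 53 member intervals, with a pseudocount of 1 and a tolerance of 0.0001. The number of fragments per library is unknown. Genes come from a RefSeq table of GRCm38.p6 without exons, so exon and intron positions were not assigned. Windows at gene starts outside the promoter table use each cluster's strand and were added after seeing the data. Coordinates count from 1. The planned analysis of sequence at summits was replaced by promoter windows, since no genome sequence was used here. The 12 regions inside and 2 per cluster in the flanks with the best worse rank of fold over both wild-type lists are named, with all regions inside that were in 1 list only. The members and lists were chosen with earlier results of these data known. 1 gene of the list of related genes is not reported here. Genotypes were compared by an exact permutation test, two-sided, of log2(number + 1). Merging, counting and pileup recovery were tested on simulated data. Python 3.11.15, numpy 2.4.6, scipy 1.17.1, pandas 2.3.3 and matplotlib 3.10.9 were used.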

Additional observations from a re-analysis of the deposited data

How the results depend on the processing

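The difference between genotypes ranged from 3.51 to 6.53 in log2(number + 1) over 9 alternatives, and from 5.75 to 5.83 with a library left out. Its direction is fixed by the knockout counts of 0 in all but the wider flanks, where they were 0 as well. With the replicate number as a block it was 5.79, and an exact sign-flip test gave p = 0.5, the lowest possible with 2 pairs, and whether the numbers pair the libraries could not be checked from 1 value per library. The pooled ratio of inside to flanks turned from 1.19 to 0.503 at a −log10 q of 10 or more and to 0.813 at a −log10 p of 8 or more. These settings left 12 and 9 intervals, and 27 and 27, in the wild-type libraries. It was 1.52 with flanks of 50 kb, 1.11 with flanks of 200 kb, and 1.13 to 1.25 with a library left out. The Hoxc ratio moved from 3.74 to values between 1.73 and 2.59. The Hoxa ratio turned to 1.04 at a −log10 p of 8 or more, the Hoxb ratio to 2.59 with flanks of 50 kb, and the Hoxd ratio to 0 at a −log10 q of 10 or more and to 0.825 without wild-type replicate 2, against 4.13 without replicate 1. The Hoxb ratio fell from 0.382 to 0.0821 at that −log10 p limit and to 0 at that −log10 q limit. With flanks of 200 kb it was 0.537. Flanks of 50 kb gave no Hoxd ratio, since 1 library had 0 intervals there. The stricter settings hold fewer intervals by construction, so densities fell. At a −log10 q of 10 or more they were 0.948 in Hoxa, 0 in Hoxb, 1.30 in Hoxc and 0 in Hoxd per 100 kb, where the genome held 0.648 and 0.515. At a −log10 p of 8 or more they were 2.84 in Hoxa, 0.288 in Hoxb, 3.89 in Hoxc and 1.03 in Hoxd, where the genome held 1.13 and 0.969. With a library left out they ranged from 2.84 to 3.79 in Hoxa, 2.30 to 2.88 in Hoxb and 10.4 to 12.1 in Hoxc, and were 2.06 in Hoxd. By class, the −log10 q limit gave 0 anterior, 0.450 central and 0.892 posterior intervals per 100 kb, and the −log10 p limit 0.958, 1.80 and 2.45. Replicate 2 alone had 0 in both anterior and central stretches at the first limit. Classes of 1 to 4, 5 to 8 and 9 to 13 moved the anterior density to 2.39. With a library left out the ranges were 1.28 to 1.92, 5.39 to 6.29 and 5.80 to 6.69. Leaving out the stretch between Hoxb13 and Hoxb9 was chosen after seeing the data. The mean share found in the other list moved from 72.6% to 61.5% with a reciprocal overlap of 50%, to 65.2% with summits within 100 bp and to 77.8% at a −log10 q of 10 or more, and could not be had with a library left out. The count of 10 Hox genes became 6 in the gene, 15 at 5 kb, 17 at 10 kb, 0 at a −log10 q of 10 or more, and 12 to 13 with 1 library. Apart from what the settings themselves change, the cause was not tested. A median pileup of 8 inside the clusters limits what can be called there, and 2 libraries per genotype limit every comparison.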
